A study of Mus musculus with 15 samples.

Results

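Thrombospondins and other matricellular proteins were compared in the untreated hearts of 3 kinds of male mice. The set comprises 10 genes: Thbs1, Thbs2, Thbs3, Thbs4, Sparc, Sparcl1, Postn, Cilp, Ccn2 and Tnxb. They were chosen by gene symbol, as every probe set annotated with 1 of these symbols alone, which gave 15 probe sets of the 45096 on the array and 10 of its 18190 genes. The groups were B6C3F1, the first-generation cross, and its parental inbred strains C3H (C3H/HeJ) and C57Bl/6 (C57BL/6J), with 5 mice and 5 Affymetrix arrays of apex RNA in each. All mice, in every group, carried a radiotelemetry transmitter implanted in the abdomen at 7 weeks of age and were 9 to 10 weeks old at collection. None received another treatment. The study set gene expression beside the physiology and pathology of these hearts.

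Matricellular proteins are secreted into the extracellular matrix, where they bind collagens, growth factors and cell surface receptors rather than bearing load themselves. Thrombospondins fall into a trimeric group, Thbs1 and Thbs2, which bind the receptors CD36 and CD47 and limit vessel growth, and a pentameric group that includes Thbs3 and Thbs4. In mouse heart muscle cells, Thbs4 is also known inside the cell, where it binds the stress sensor Atf6 in the endoplasmic reticulum. Sparc binds collagen and is needed for its orderly assembly, and Sparcl1 is its closest relative. Postn (periostin), Ccn2 (connective tissue growth factor), Cilp (cartilage intermediate layer protein) and Tnxb (tenascin X) are matrix proteins of fibroblasts and other connective tissue cells, and the first 3 are known to rise in the injured or overloaded heart.

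Promoter sequence was taken for those members that differed between the inbred strains and have a window in the RefSeq table used, so that a reader can see the stretch before each start. The windows are the 250 bases before the annotated start, on the strand of the gene, from the reference genome of C57BL/6J (GRCm38.p6). Capitals mark exact matches on either strand to TATAAA (a form of the TATA box), CATTCC (the core bound by TEAD factors) and GTCTG (the SMAD box). The Thbs4 window is chr13:92794819-92795068 on the minus strand, the Sparc window is chr11:55420081-55420330 on the minus strand, and the Cilp window is chr9:65264930-65265179 on the plus strand.
Thbs4: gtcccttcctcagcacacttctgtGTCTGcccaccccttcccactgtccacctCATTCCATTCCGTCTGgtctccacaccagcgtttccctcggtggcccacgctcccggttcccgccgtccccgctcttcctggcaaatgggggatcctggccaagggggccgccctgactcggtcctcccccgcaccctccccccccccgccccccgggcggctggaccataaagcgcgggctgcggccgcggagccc
Sparc: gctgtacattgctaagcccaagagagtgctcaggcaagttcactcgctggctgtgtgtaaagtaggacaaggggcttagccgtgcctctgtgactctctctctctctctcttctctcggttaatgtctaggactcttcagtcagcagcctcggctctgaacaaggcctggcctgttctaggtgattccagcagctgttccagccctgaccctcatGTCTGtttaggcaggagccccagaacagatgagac
Cilp: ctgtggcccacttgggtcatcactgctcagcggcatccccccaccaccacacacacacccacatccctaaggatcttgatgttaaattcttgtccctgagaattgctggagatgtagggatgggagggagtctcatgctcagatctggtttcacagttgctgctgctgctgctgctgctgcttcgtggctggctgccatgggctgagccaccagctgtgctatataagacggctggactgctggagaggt
The Thbs4 window holds 2 copies of CATTCC, 197 to 192 and 192 to 187 bases before the start, which share 1 base. It also holds 2 copies of GTCTG, of which the nearer begins at the next base, 186 bases before the start. The Sparc window holds 1 copy of GTCTG, 35 to 31 bases before the start, and the Cilp window holds no exact match to the 3 motifs. It does hold the letters tatataag near its end, a TATA-like stretch that a search for TATAAA alone does not mark. A lack of capitals there is thus not a lack of a TATA box. Of 32841 windows of the same length, 12.4% hold TATAAA, 12.6% hold CATTCC and 42.2% hold GTCTG. At least 2 copies occur in 1.02% of the windows for CATTCC and in 11.7% for GTCTG. These matches describe letters of the C57BL/6J reference, and C3H sequence was not used here. Of the 10 genes, 7 have a window: Thbs2, Thbs3, Thbs4, Sparc, Postn, Cilp and Tnxb.

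Values are log2(signal + 16), where the signal is the deposited MAS5 value on the linear scale, so that 1 unit is a doubling for bright probe sets and understates the change of dim ones. The brightest probe set by mean stands for each gene, and levels are compared between mice and not between genes, since a probe set's brightness also depends on its probes. Probe sets with a mean under 5.74, the 40th percentile, were not tested. All 10 genes passed this filter, as did 13 of the 15 probe sets. The others, 1 of Thbs1 and 1 of Sparc, had brighter probe sets that were tested. A difference passed at an adjusted p under 0.05 in the limma fit over all 13111 genes that remained. Apex RNA comes from many cell types at once, so fewer cells of a type and less RNA per cell cannot be told apart.

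The heart muscle gene Myh6, which encodes the alpha myosin heavy chain, had mean levels of 16.04 in B6C3F1, 15.89 in C3H and 16.09 in C57Bl/6 mice. The poly-A control RNAs added during labelling averaged 8.70 ± 0.15 in B6C3F1, 9.34 ± 0.64 in C3H and 8.69 ± 0.60 in C57Bl/6 arrays (mean log2 signal of 12 probe sets ± SD, n = 5 each). The ratio of the 3 prime to the 5 prime Gapdh probe set, which reflects RNA integrity, was 0.90 ± 0.21 in B6C3F1, 0.60 ± 0.26 in C3H and 0.85 ± 0.24 in C57Bl/6 arrays on the log2 scale. The arrays of C3H replicate 4 (10.48) and C57Bl/6 replicate 5 (7.66) stood apart from their groups in the poly-A controls. Fits with these measures as covariates are given in the closing section.

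Between the inbred strains, 3 of the 10 genes were higher in C3H (Thbs4, Ccn2 and Sparc), 1 was lower (Cilp) and 6 did not pass. Over all genes tested, 7.25% were higher (951 of 13111) and 8.4% were lower (1101). With each array centred on its own median, that split became 1277 higher and 620 lower. The median difference of the 10 genes was 0.37 log2 units, against -0.02 over all genes. The median size of the difference, whatever its sign, was 0.65 against 0.22. In B6C3F1 against C57Bl/6, 2 genes were higher (Thbs4 and Sparc) and 0 lower, where 2.06% of all genes were higher and 1.77% lower. In B6C3F1 against C3H, 0 were higher and 2 lower (Thbs4 and Thbs2), where the shares of all genes were 3.58% and 2.62%. The cross was also set against the midparent, which averages the log2 means of its parents. There 0 of the 10 genes passed, with 0.481% of all genes higher and 0.153% lower.

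**Figure D1:**
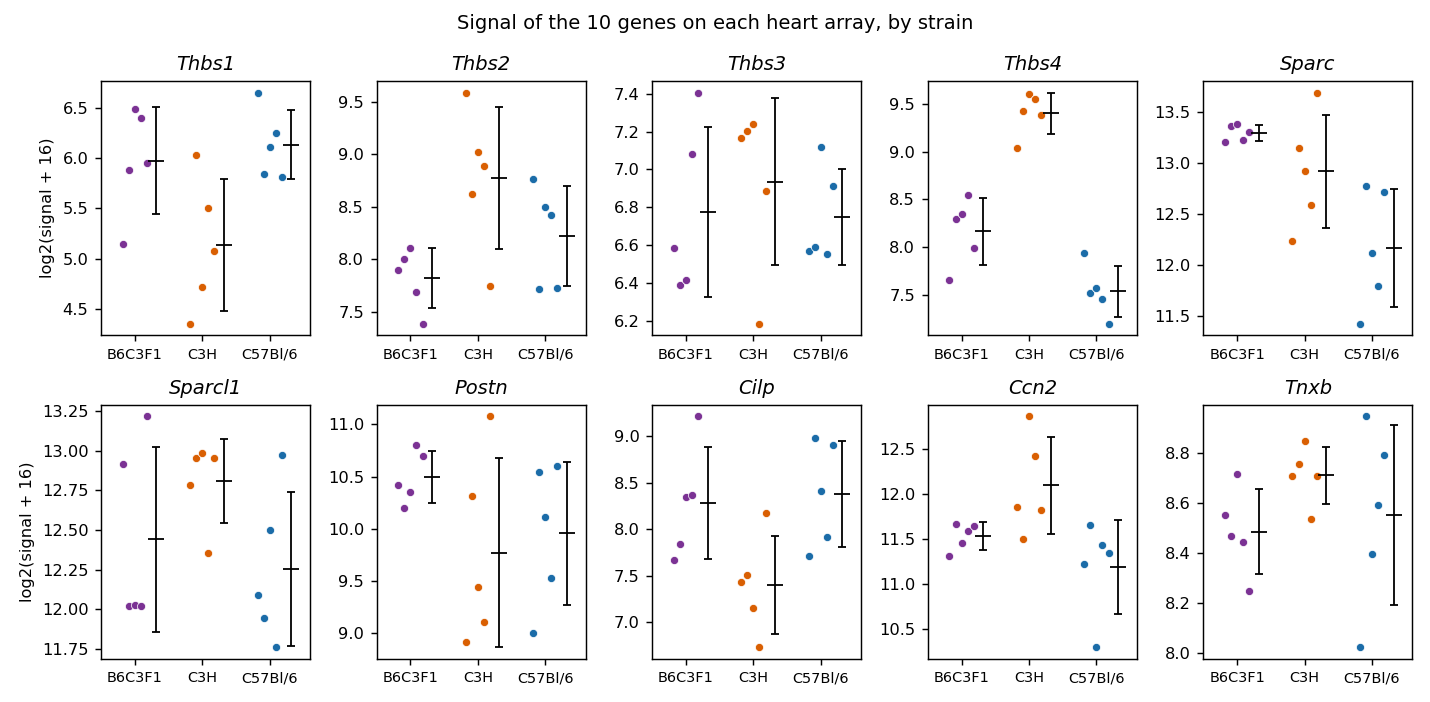
Signal of each gene on each of the 15 arrays, as log2(signal + 16) on the vertical axis, with 1 point a mouse and the strain mean ± SD beside the points (n = 5 each). Each gene is shown by its brightest probe set. Thbs4 separates C3H from both other groups, Sparc is tightly grouped in B6C3F1 on this probe set, and Postn spreads widely in C3H and C57Bl/6.

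Among the thrombospondins, Thbs4 showed the clearest strain pattern. Thbs4 levels were 7.65, 8.29, 8.34, 8.54 and 7.99 in B6C3F1 mice, 9.04, 9.42, 9.60, 9.55 and 9.38 in C3H mice, and 7.94, 7.52, 7.57, 7.45 and 7.20 in C57Bl/6 mice. Every C3H mouse lay above every mouse of the other groups, while the lowest B6C3F1 mouse (7.65) lay below the highest C57Bl/6 mouse (7.94). Set against C57Bl/6, C3H hearts had 3.64-fold more Thbs4 signal (1.86 ± 0.17 log2 units, difference ± SE, limma adjusted p = 1.71e-07). In B6C3F1 it was 2.36-fold lower than in C3H (-1.24 ± 0.17, adjusted p = 0.000133) and 1.54-fold above C57Bl/6 (0.63 ± 0.17, adjusted p = 0.0486). The cross thus stood 0.336 of the way from C57Bl/6 toward C3H by their means, and its distance from the midparent did not pass (-0.31 ± 0.15, adjusted p = 0.354). The differences that involve C3H passed under each of the 30 alternatives run. The difference between B6C3F1 and C57Bl/6 passed under 12 of 30, with adjusted p between 0.0183 and 0.13. It did not pass without any 1 of B6C3F1 replicates 2, 3 or 4, C3H replicates 2 to 5 or C57Bl/6 replicates 2 to 5.

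Thbs4 is also abundant in tendon and skeletal muscle, so markers of those tissues were read beside it. Of 8 skeletal muscle markers, 6 lay below the dim filter (Myh1, Myh2, Myh4, Actn3, Tnnt3 and Mybpc1), and 0 of the 2 tested, Mylpf and Ckm, passed between C3H and C57Bl/6. Of 7 cartilage and tendon markers, 3 lay below it (Tnmd, Chad and Col2a1), and 0 of the 4 tested passed. The summed linear signal of the cartilage and tendon list ranged from 603 to 926 in B6C3F1, from 458 to 727 in C3H and from 752 to 1009 in C57Bl/6. This summed level was lower in every C3H mouse than in any C57Bl/6 mouse. The summed skeletal muscle signal, which includes Ckm, a creatine kinase that heart muscle also makes, ranged from 38796 to 53715 in B6C3F1, 38131 to 50664 in C3H and 44979 to 53963 in C57Bl/6. The part of these tissues in the Thbs4 values was not tested.

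Thbs2 was lower in the cross than in C3H. Thbs2 levels were 7.90, 8.0, 8.11, 7.69 and 7.39 in B6C3F1 mice, 9.59, 8.62, 9.02, 8.89 and 7.75 in C3H mice, and 8.76, 7.71, 8.50, 8.42 and 7.73 in C57Bl/6 mice. Of the C3H mice, 4 lay above all B6C3F1 mice, and replicate 5 lay among them. The fall was 1.94-fold (-0.96 ± 0.27, limma adjusted p = 0.0394), and it passed under 17 of 30 alternatives, with adjusted p up to 0.32. It did not pass without any 1 of the 5 B6C3F1 replicates or of C3H replicates 1 to 4 (adjusted p 0.0504 to 0.113). The other Thbs2 probe sets above the filter differed by -0.43 (1450663_at) and -0.35 (1447862_x_at) between B6C3F1 and C3H, and neither passed. Between C3H and C57Bl/6 the main probe set differed by 0.55 ± 0.27 (adjusted p = 0.195). It passed without C3H replicate 5 (adjusted p = 0.0226). Its other probe sets gave -0.11 and 0.28 there.

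Thbs1, an activator of latent TGF-beta, had no difference that passed. Its levels were 5.14, 5.88, 6.49, 6.40 and 5.95 in B6C3F1 mice, 4.35, 6.03, 4.72, 5.50 and 5.08 in C3H mice, and 6.65, 5.85, 6.11, 6.25 and 5.81 in C57Bl/6 mice. Of the C3H mice, 4 lay below every C57Bl/6 mouse, and replicate 2 lay among them. The C3H mean (5.14) lay under the 5.74 of the dim filter, which Thbs1 passed narrowly (mean 5.75) through the other groups, so the size of a difference from C3H is poorly measured. The fitted difference between C3H and C57Bl/6 was -1.0 ± 0.38 (adjusted p = 0.0805, or 0.0378 without C3H replicate 2). Thbs1 is stored in platelets. Of 4 platelet markers tested, 1 was lower in C3H than in C57Bl/6 and 0 higher, where 8.4% of all genes were lower. The 1 that passed was Ppbp (-1.82 ± 0.33, limma adjusted p = 0.000502), while the platelet gene Pf4 did not pass (-0.29). The summed signal of 5 platelet markers ranged from 3720 to 4425 in B6C3F1, 1851 to 3651 in C3H and 2307 to 5234 in C57Bl/6. The part of platelet RNA in the Thbs1 values was not tested.

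Thbs3 had no difference that passed. Its levels averaged 6.78 ± 0.45 in B6C3F1, 6.94 ± 0.44 in C3H and 6.75 ± 0.25 in C57Bl/6 mice (SD, n = 5 each), and the groups overlapped. The 95% interval of the C3H minus C57Bl/6 difference ran from -0.35 to 0.73 log2 units, and that of B6C3F1 minus C57Bl/6 from -0.52 to 0.57. The pentameric members thus gave unlike values: an interval of 1.5 to 2.23 for Thbs4 and one that spans 0 for Thbs3.

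Sparc was higher in the cross and in C3H than in C57Bl/6. Sparc levels were 13.21, 13.36, 13.38, 13.22 and 13.31 in B6C3F1 mice, 12.24, 13.15, 12.92, 12.59 and 13.69 in C3H mice, and 11.43, 12.77, 12.12, 11.80 and 12.72 in C57Bl/6 mice. On this brightest probe set all B6C3F1 mice lay above all C57Bl/6 mice, and the C3H mice overlapped both other groups. In B6C3F1 hearts the Sparc signal was 2.19-fold that of C57Bl/6 (1.13 ± 0.24, limma adjusted p = 0.00933), which held under each of the 30 alternatives. The C3H signal was 1.68-fold that of C57Bl/6 (0.75 ± 0.24, adjusted p = 0.0377), and this passed under 19 of 30. It did not pass without any 1 of C3H replicates 2, 3 or 5 or C57Bl/6 replicates 1, 3 or 4 (adjusted p 0.0685 to 0.114). The difference between B6C3F1 and C3H was 0.38 ± 0.24 (adjusted p = 0.419), and that from the midparent was 0.75 ± 0.21 (adjusted p = 0.111). The midparent difference passed without C3H replicate 5 (adjusted p = 0.0235).

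A second Sparc probe set gave smaller differences that did not pass. Probe set 1448392_at averaged 12.28 ± 0.34 in B6C3F1, 11.82 ± 0.52 in C3H and 11.47 ± 0.52 in C57Bl/6 mice. On this probe set the B6C3F1 mice (11.87 to 12.71) overlapped the C57Bl/6 mice (10.80 to 12.05) and were less tightly grouped than on the brightest one. It differed by 0.81 between B6C3F1 and C57Bl/6 (adjusted p = 0.0652 in the fit over 23048 probe sets) and by 0.36 between C3H and C57Bl/6 (adjusted p = 0.377). Over the 13 member probe sets tested, 4 passed between C3H and C57Bl/6 (3 higher, 1 lower), where 13.7% of all probe sets passed in either direction. In B6C3F1 against C57Bl/6, 1 passed, where 3.18% of all did. Thbs4 missed the threshold in that fit (adjusted p = 0.0539). In B6C3F1 against C3H, 2 passed, where 5.15% did, and against the midparent 0 passed, where 0.573% did.

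Sparcl1, the relative of Sparc that endothelial and perivascular cells also make, did not pass in any comparison. Its levels were 12.92, 12.02, 12.03, 12.02 and 13.22 in B6C3F1 mice, 12.78, 12.95, 12.98, 12.35 and 12.96 in C3H mice, and 12.09, 11.94, 12.50, 11.76 and 12.97 in C57Bl/6 mice. The B6C3F1 mice fell at 2 levels, with replicates 1 and 5 about 1 log2 unit above the other 3. The difference between C3H and C57Bl/6 was 0.55 ± 0.24 (adjusted p = 0.132). It passed without C57Bl/6 replicate 5 (adjusted p = 0.0393).

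**Figure D2:**
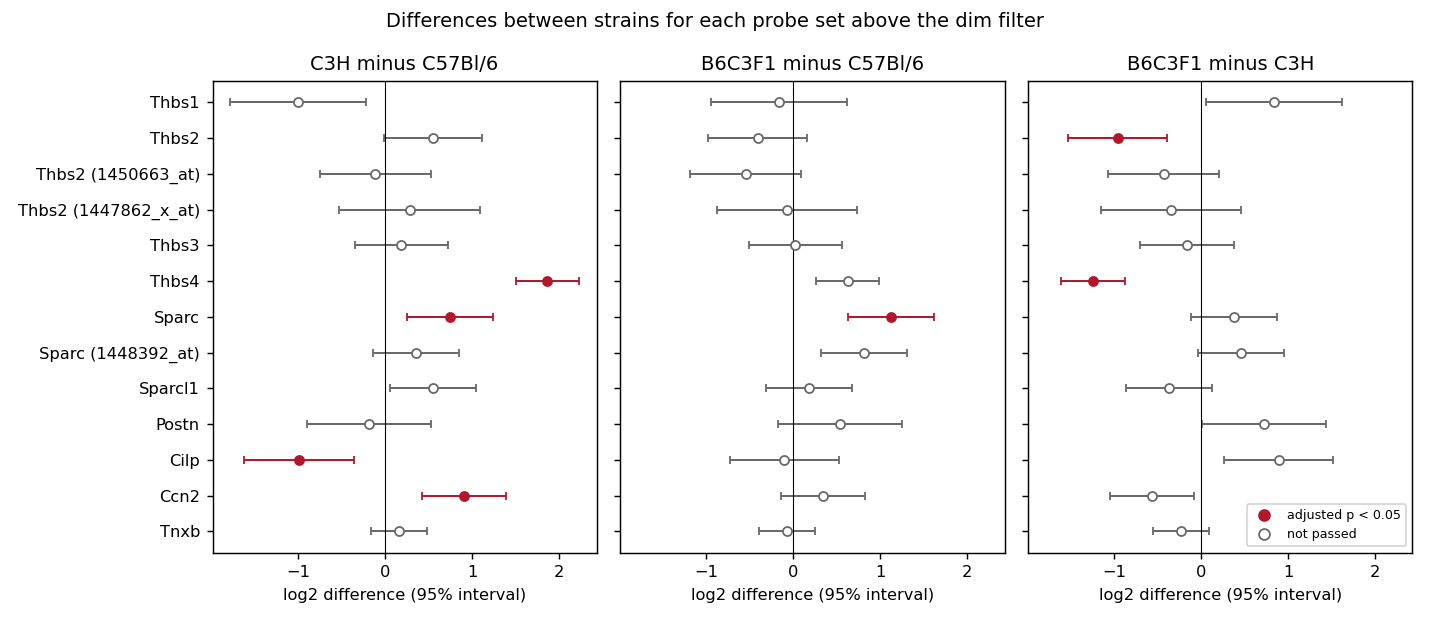
Differences between strains for the 13 member probe sets above the dim filter, in log2 units on the horizontal axis, with 95% intervals from the fit over 23048 probe sets. Filled points have an adjusted p under 0.05. Thbs4 has the widest separation between C3H and C57Bl/6, and its B6C3F1 minus C57Bl/6 point is open because it passes over genes but not over probe sets.

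Ccn2, a secreted regulator of fibrosis and a known target of TGF-beta and YAP, was higher in C3H. Ccn2 levels were 11.31, 11.67, 11.46, 11.59 and 11.65 in B6C3F1 mice, 11.86, 11.50, 12.87, 12.43 and 11.83 in C3H mice, and 11.22, 11.66, 10.29, 11.44 and 11.35 in C57Bl/6 mice. C3H replicate 2 (11.50) lay below the highest C57Bl/6 mouse (11.66), so the groups overlapped by that mouse alone. The Ccn2 signal of C3H was 1.88-fold that of C57Bl/6 (0.91 ± 0.23, limma adjusted p = 0.00962), and this passed under each of the 30 alternatives, with the difference between 0.68 and 1.06. The cross lay between its parents, at 11.54 ± 0.15, and differed from neither at the threshold (-0.56 ± 0.23 from C3H, adjusted p = 0.171, and 0.34 ± 0.23 from C57Bl/6, adjusted p = 0.422).

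Cilp, a matrix protein first described in cartilage, was the member that was lower in C3H. Cilp levels were 7.67, 7.83, 8.35, 8.36 and 9.22 in B6C3F1 mice, 7.43, 7.50, 7.15, 6.73 and 8.17 in C3H mice, and 7.71, 8.98, 8.41, 7.91 and 8.91 in C57Bl/6 mice. Of the C3H mice, 4 lay below all mice of the other groups, and replicate 5 (8.17) lay among them. Cilp was 1.99-fold lower in C3H than in C57Bl/6 (-0.99 ± 0.30, limma adjusted p = 0.0308), which passed under 22 of 30 alternatives. It did not pass without any 1 of C3H replicates 3 or 4 or C57Bl/6 replicates 2, 3 or 5 (adjusted p 0.0609 to 0.0921). The cross was close to C57Bl/6 (-0.10 ± 0.30, 95% interval -0.73 to 0.54) and did not pass against C3H (0.89 ± 0.30, adjusted p = 0.0914). The difference from C3H passed under 3 of 30 alternatives. These were leaving out C3H replicate 5 (adjusted p = 0.0296), the replicate block and the Gapdh ratio as covariate. The summed signal of the 7 cartilage and tendon markers given beside Thbs4 was also lower in C3H than in C57Bl/6. Of these markers 3 lay below the dim filter, and 0 of the 4 tested passed. Their part in the Cilp difference was not tested.

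Postn and Tnxb had no difference that passed. Postn levels were 10.42, 10.20, 10.35, 10.80 and 10.70 in B6C3F1 mice, 8.92, 10.32, 9.44, 9.10 and 11.08 in C3H mice, and 9.00, 10.54, 10.11, 9.52 and 10.60 in C57Bl/6 mice. The B6C3F1 mice lay within 0.60 log2 units of each other, inside the range of the C3H mice. The Postn difference was 0.72 ± 0.34 between B6C3F1 and C3H (adjusted p = 0.25, or 0.0314 without C3H replicate 5) and -0.19 ± 0.34 between C3H and C57Bl/6 (adjusted p = 0.778). Tnxb, which spaces collagen fibrils, averaged 8.48 ± 0.17 in B6C3F1, 8.71 ± 0.11 in C3H and 8.55 ± 0.36 in C57Bl/6 mice. Its 95% interval for C3H minus C57Bl/6 ran from -0.16 to 0.48.

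The members differed in how much arrays of the same strain varied, a spread that holds measurement noise as well as differences between mice. The pooled SD within strains was 0.67 for Postn, 0.57 for Cilp, 0.53 for Thbs1 and 0.50 for Thbs2, against a median of 0.26 over the 13111 genes. The share of genes at or below these SDs was 91.9% for Postn, 86.1% for Cilp, 83.9% for Thbs1 and 82.1% for Thbs2. Thbs1 lay just above the dim filter (mean 5.75), and noise of dim signals was not told apart from spread between its mice. Thbs4 (SD 0.28, 54.7%) and Tnxb (SD 0.24, 43.2%) were near the middle. Sparc, Sparcl1, Ccn2 and Thbs3 had pooled SDs of 0.46, 0.46, 0.45 and 0.39.

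Within the inbred strains, Sparc and Postn ranked the mice almost alike. In C3H both ran, from low to high, through replicates 1, 4, 3, 2 and 5, with Sparc read by its brightest probe set. Sparc probe set 1448392_at ran there through replicates 4, 3, 1, 2 and 5. In C57Bl/6 Postn again ran through 1, 4, 3, 2 and 5. Cilp and both of these Sparc probe sets differed from that order by exchanging replicates 2 and 5. Collagen genes, chosen after their values were seen, were set beside them. Col5a1, given below as the gene nearest to Sparc over the same arrays, had the same order as Postn in both strains. Col1a1 ran through replicates 1, 3, 4, 2 and 5 in C3H and had the order of Sparc in C57Bl/6. Col1a2 ran through replicates 4, 1, 3, 2 and 5 in C3H and through 1, 4, 2, 5 and 3 in C57Bl/6. Col3a1, the chain of type III collagen, ranged from 13.15 to 13.81 in B6C3F1, from 10.78 to 13.95 in C3H and from 11.67 to 13.62 in C57Bl/6, with replicates 1 and 4 lowest in both inbred strains. No B6C3F1 mouse was as low as these for Col3a1, Sparc or Postn.

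The brightest Thbs2 probe set ran the other way. Its highest mouse was replicate 1 in both inbred strains, and its lowest were replicate 5 in C3H and replicate 2 in C57Bl/6. The other Thbs2 probe sets did not keep this order in C57Bl/6, where replicate 3 was the lowest mouse of both, and 1447862_x_at was highest in replicate 3 in C3H. Fibroblast proteoglycans ran both ways. Lumican (Lum) had the order of Postn in C3H and was highest in replicates 5 and 2 in C57Bl/6. Decorin (Dcn) was lowest in C3H replicate 5 and C57Bl/6 replicate 2, and its range was narrow, from 14.38 to 14.67 in B6C3F1, 14.54 to 14.77 in C3H and 13.97 to 14.47 in C57Bl/6. Ccn2 followed neither order: C3H replicate 3 was its highest mouse and C57Bl/6 replicate 3 its lowest. Replicate numbers are names only, and the labels do not match the mice that share one.

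**Figure D3:**
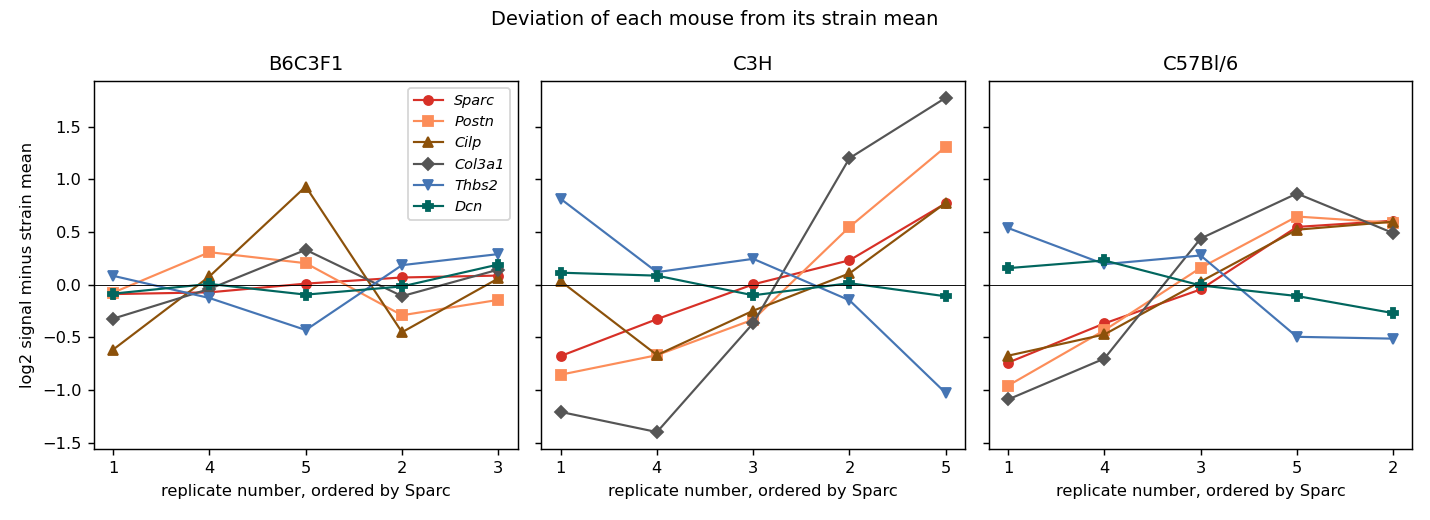
Deviation of each mouse from its strain mean for 4 members and for Col3a1 and Dcn, in log2 units, with the mice of each strain ordered by Sparc along the horizontal axis. Each gene is read by its brightest probe set. In C3H and C57Bl/6 the lines of Sparc, Postn, Cilp and Col3a1 mostly climb while that of Thbs2 descends; in B6C3F1 the Sparc line is nearly flat.

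Fibroblast markers were read beside these genes. Of 10 such markers, 3 were higher in C3H than in C57Bl/6 and 0 lower: the transcription factor Tcf21 (0.76), Lum (0.57) and Dcn (0.41). In B6C3F1 against C57Bl/6, 2 were higher (Lum, 0.78, and Tcf21, 0.52), and against C3H 0 passed in either direction. Of all genes tested, 7.25% were higher in C3H and 2.06% in B6C3F1, each against C57Bl/6. The collagens of the list did not pass. Against C57Bl/6, Col1a1 and Col3a1 had lower mean levels in C3H, and Col1a2 a slightly higher one. The median difference of the list was 0.07 for C3H minus C57Bl/6 and 0.53 for B6C3F1 minus C57Bl/6. Its summed linear signal ranged from 71358 to 93555 in B6C3F1, 72650 to 87333 in C3H and 69773 to 85153 in C57Bl/6, so the groups overlapped. Of 5 myofibroblast markers tested, 0 passed in any contrast, and Tnc (tenascin C), a matricellular protein of injured tissue, lay below the dim filter. The part of fibroblast number in the Sparc and Ccn2 differences was not tested.

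The genes of nearest profile were found for the 4 members that passed in C3H or B6C3F1 against C57Bl/6. Likeness was the root mean square distance between centred log2 values over all 15 arrays, taken among all other genes tested. Nearest to Thbs4 were Sync, which encodes an intermediate filament protein of muscle, at 0.27 log2 units, Chm, a Rab escort protein, at 0.33, and Trnp1 at 0.35, beside a spread of 0.81 for Thbs4 itself. Sync was 1.45, Chm 1.61 and Trnp1 1.64 higher in C3H than in C57Bl/6. These genes were picked by likeness to Thbs4 on the same arrays, so a like strain difference was built into the choice. Nearest to Sparc were Col5a1 (0.20), the actin-binding peptide Tmsb10 (0.23) and the procollagen processing enhancer Pcolce (0.25), and the spread of Sparc was 0.63. For Cilp they were Auts2 (0.34), the calcineurin regulator Rcan1 (0.36) and Cd93 (0.37), against a spread of 0.68. For Ccn2 they were AI593442 (0.28), Plcd3 (0.29) and 2500002B13Rik (0.30), against 0.55.

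Related genes were counted in 5 lists. Of all genes tested, 7.25% were higher and 8.4% lower in C3H than in C57Bl/6, and the list counts are read beside these shares. For B6C3F1 the shares were 2.06% higher and 1.77% lower against C57Bl/6, and 3.58% higher and 2.62% lower against C3H. Of 18 other matricellular genes tested, 2 were higher in C3H than in C57Bl/6 and 0 lower, with a list median of 0.14. Lgals3 (galectin-3), a lectin of macrophages and injured tissue, averaged 7.67 in B6C3F1, 9.19 in C3H and 7.70 in C57Bl/6. The C3H signal was 2.81-fold that of C57Bl/6 (limma adjusted p = 0.000111), and Lgals3 was lower in B6C3F1 than in C3H (-1.52, adjusted p = 0.000321). Ecm1, a secreted matrix glycoprotein, was 0.55 higher in C3H (adjusted p = 0.00263) and 0.42 higher in B6C3F1 (adjusted p = 0.0496) than in C57Bl/6. In B6C3F1 against C3H, Lgals1 was higher (0.63) and Fbln2 (fibulin-2) lower (-0.48). The Lgals3 calls and the C3H call of Ecm1 held under all 30 alternatives. The B6C3F1 call of Ecm1 held under 10 of 30, and was lost without any 1 of the B6C3F1 mice, C3H replicates 3 to 5 or C57Bl/6 replicates 1, 3, 4 or 5 (adjusted p up to 0.134). Lgals1 was lost without B6C3F1 replicates 2, 3 or 4 or C3H replicates 1, 3 or 4 (up to 0.0908), and Fbln2 without B6C3F1 replicates 1, 2 or 4 or C3H replicates 1 or 4 (up to 0.082). The Ccn2 relative Ccn1, which is in the same list, differed by -0.27 between C3H and C57Bl/6 and did not pass (adjusted p = 0.371).

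Of 21 receptors and cell surface partners, 2 were higher and 2 lower in C3H than in C57Bl/6. The integrin subunit Itgb3, which pairs with Itgav to bind several matricellular proteins, averaged 6.13 in B6C3F1, 4.66 in C3H and 7.05 in C57Bl/6. It passed as lower in C3H than in C57Bl/6 (adjusted p = 2.96e-05), but the C3H mean lay under the 5.74 of the dim filter, which the gene passed through the other groups, so no fold is given. The collagen receptor Ddr1 was 2.34-fold higher in C3H by its brightest probe set (1456226_x_at, adjusted p = 0.000533). Its other probe sets gave smaller differences, from 0.06 (1437619_x_at) to 0.65 (1439382_x_at), of which 1415797_at passed (0.60, adjusted p = 0.0385). The thrombospondin receptor Cd36 was lower in C3H by its brightest probe set (-0.35, limma adjusted p = 0.0203). Its probe set 1423166_at gave -0.72 (adjusted p = 0.00247), and 1450884_at gave -0.14 and did not pass. The other thrombospondin receptor, Cd47, had 1.72-fold more signal in C3H on its brightest probe set (adjusted p = 4.26e-05), but probe set 1419554_at gave -0.69 (adjusted p = 0.00112), so the direction depends on the probe set. The Cd36 call was lost without C3H replicate 2 or C57Bl/6 replicate 1 (adjusted p up to 0.0633). It was also lost with each array centred on its median (0.122) and with the Gapdh ratio as covariate (0.0662).

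Of 19 TGF-beta genes tested, 2 were higher in C3H than in C57Bl/6 and 0 lower. Smad7, an inhibitor that TGF-beta itself induces, was 0.52 higher (adjusted p = 0.0215). Smad4 was 0.41 higher by its brightest probe set (adjusted p = 0.00875), but probe set 1422485_at gave -1.42 (adjusted p = 2.05e-07). Of 16 YAP and SRF pathway genes tested, 0 were higher and 1 lower, Tead1 (-0.42, adjusted p = 0.0206), a DNA-binding partner of YAP. The Tead1 call was lost without C3H replicate 4 or C57Bl/6 replicate 3 (adjusted p up to 0.0664). The Smad7 call was lost without C3H replicate 4 or C57Bl/6 replicates 1, 3 or 5 (adjusted p up to 0.0644). In B6C3F1 against C57Bl/6, 0 genes of these last 3 lists passed. Against C3H, the cross had Itgb3 (with C3H under the dim filter) and the proteoglycan Sdc1 (0.61) higher and Smad4 (-0.38) and Cd47 (-0.66) lower, the last 2 by their brightest probe sets, and 0 of the YAP and SRF genes passed. The Sdc1 difference passed under 5 of 30 alternatives. Smad4 was lost without B6C3F1 replicates 1, 2 or 5 or C3H replicates 3 or 4 (adjusted p up to 0.0898), and Sdc1 without 13 of the 15 arrays, the exceptions being C3H replicate 2 and C57Bl/6 replicate 1. Against the midparent, 0 genes of any of the 5 lists passed.

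Endoplasmic reticulum genes were read beside Thbs4 because of its binding to Atf6. Of 20 chaperone and stress genes tested, 9 were lower in C3H than in C57Bl/6 and 1 was higher, with a list median of -0.35. Of all genes tested, 8.4% were lower and 7.25% higher. The disulfide isomerase Pdia6 was 2.43-fold lower (-1.28 ± 0.14, limma adjusted p = 1.73e-06). Pdia3 (-0.93), Manf (-0.89), Hsp90b1 (-0.76) and the calcium-binding chaperone Calr (-0.63) were lower too, as were Sel1l (-0.49), Canx (-0.36), Dnajb9 (-0.33) and Hspa5 (-0.25). Ddit3, a transcription factor of the stress response, was the 1 that was higher (0.65, adjusted p = 0.0273), and Atf6 itself differed by 0.01 (adjusted p = 0.969). The calls of Pdia6, Pdia3, Manf, Hsp90b1 and Calr held under all 30 alternatives, and that of Canx with every array left out. With single arrays left out, those of Hspa5 (without C3H replicates 2 to 5 or C57Bl/6 replicates 1 to 3), Dnajb9 (C3H 2 or 5, C57Bl/6 1, 3 or 4), Sel1l (C3H 3, 4 or 5, C57Bl/6 1, 3 or 4) and Ddit3 (C3H 2 or 5, C57Bl/6 1, 3 or 5) were lost, with adjusted p up to 0.1. The count of lower genes was 5 with each array centred on its median and 6 to 10 under the other alternatives. In the fit over 23048 probe sets, further probe sets of Hspa5 (1427464_s_at, -0.67), Sel1l (1425188_s_at, -0.89), Canx (1422845_at, -0.42) and Pdia3 (1445330_at, -0.87) passed as lower. Those of Calr did too (1433806_x_at, -0.53, and 1456170_x_at, -0.63). Others did not pass: Hspa5 (1447824_x_at, 0.22), Ddit3 (1443897_at, 0.04), Sel1l (1430692_a_at, 0.06, and 1425187_at, -0.36), Canx (1428935_at, -0.31) and Hsp90b1 (1438040_a_at, -0.13). Of the 20 genes, 10 did not pass in either direction, and a relation of the list to Thbs4 was not tested.

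In B6C3F1 against C57Bl/6, 2 of the 20 were lower and 0 higher: Pdia6 (-0.84, adjusted p = 0.00147) and Manf (-0.60, adjusted p = 0.0445), where Thbs4 was 0.63 higher. The Pdia6 call was lost only with the mean of all probe sets (adjusted p = 0.285). The Manf call held under 16 of 30 alternatives. It was lost without B6C3F1 replicates 1, 2 or 3, C3H replicate 2 or C57Bl/6 replicates 2 to 5 (adjusted p up to 0.127). The count of lower genes ran from 0 with the mean of all probe sets to 6 with array weights. The list median was -0.27. In B6C3F1 against C3H, 1 passed, Herpud1 (-0.70, adjusted p = 0.0212), where Thbs4 was -1.24. The Herpud1 call was lost without B6C3F1 replicate 5 or C3H replicates 1, 3 or 4 (adjusted p up to 0.0679). The contrasts share the same mice, so their values are given side by side and are not independent of each other.

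**Figure D4:**
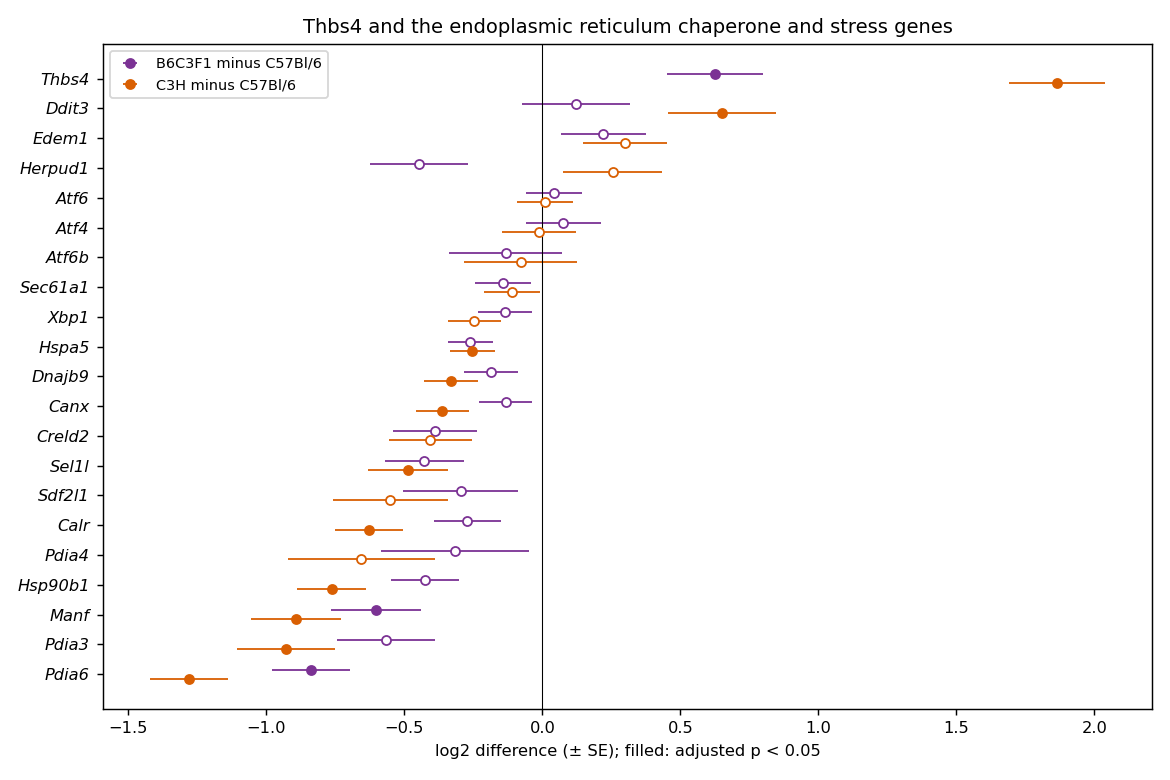
Thbs4 and 20 endoplasmic reticulum chaperone and stress genes, with the log2 difference (± SE) from C57Bl/6 on the horizontal axis for B6C3F1 and for C3H. Filled points have an adjusted p under 0.05 in the fit over 13111 genes. Thbs4 lies to the right at 0.63 and 1.86, while Pdia6 lies farthest left at -0.84 and -1.28.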

How the data were processed

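Gene expression was measured on 15 Affymetrix arrays. Per the labels' protocols, 50 ng of total RNA went into a 2-cycle labelling reaction, so transcripts were copied more than once. The deposited values are log2 signals made with MAS5 according to the submitters' processing notes. The log2 step and a 2% trimmed mean near 500.26 per array were read from the values. No depth exists for arrays, so their number limits the precision. The values were made linear, 16 was added and log2 was taken again. The tests were limma's (version 3.58.1, R 4.3.3), by lmFit and then eBayes with an intensity trend on all 15 arrays together, and p-values were adjusted by the Benjamini-Hochberg method over all genes or probe sets tested. The annotation gave 1 symbol to 34940 probe sets, several to 932 and none to 9160, beside 64 controls. Of the first, 34736 were found by gene identifier in the GRCm38.p6 table. The 1 probe set shared by Thbs1 and another gene was not used. The array's probes were not examined for strain variants. The procedure was tested on simulated data.

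The members, lists, motifs and tests were chosen with earlier results of these data known. Genes were named by rule: all members; from each list up to 4 that passed between the inbred strains, by size, and up to 2 more that passed in the cross; and the 3 nearest profiles of each member that passed in C3H or B6C3F1 against C57Bl/6, which leaves out Thbs2. Other genes named were chosen after their values were seen. These include Atf6, Ccn1, Col3a1 and the list genes beyond those numbers. The labels give each array its own mouse. Their sample numbers run in 1 block per strain, so handling order and strain cannot be told apart, and the labels give no hybridisation batch. The alternatives were a pseudocount of 1 or of 64, no dim filter or one at the 60th percentile, quantile normalization, centring, the mean of a gene's probe sets, no _x_at or _s_at probe sets, no trend, robust eBayes, only the 2 strains compared, a replicate block, the Gapdh ratio or the poly-A controls as a covariate, array weights, and leaving out each array.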

Additional observations from a re-analysis of the deposited data

How the results depend on the processing

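Over 40 differences of the 10 genes and 1178 comparisons with an alternative, 1114 kept their side of the threshold, 50 lost their call, 14 gained one and 0 called differences reversed. The Thbs4 differences of C3H from C57Bl/6 and of B6C3F1 from C3H, that of Ccn2 between C3H and C57Bl/6 and that of Sparc between B6C3F1 and C57Bl/6 kept their call under all 30. The Sparc difference between C3H and C57Bl/6 was lost with the mean of all probe sets (adjusted p = 0.113), no trend (0.0868), robust eBayes (0.0654), only the 2 strains (0.0835) and the Gapdh ratio as covariate (0.122). The Cilp difference was lost with centring (0.064), no trend (0.0626) and the poly-A covariate (0.221), and the Thbs2 difference with no dim filter (0.057), the mean of all probe sets (0.32), no trend (0.083) and the poly-A covariate (0.25). The causes were not tested.

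Members passed in B6C3F1 against C57Bl/6 (2) numbered 1 with a pseudocount of 64, no dim filter, quantile normalization, the mean of all probe sets, no trend, only the 2 strains or the replicate block. All genes passed there (502) numbered 315 with centring, 292 with the mean of all probe sets, 304 with no trend and 1314 with array weights. Member probe sets passed there (1) numbered 2 with the 60th percentile filter, centring, only the 2 strains, the replicate block or the poly-A covariate, 3 with the Gapdh covariate or array weights and 0 with no trend. In B6C3F1 against C3H, members passed (2) numbered 1 with no dim filter, the mean of all probe sets, no trend or the poly-A covariate, and all genes passed (813) numbered 530 with the mean of all probe sets and 390 with the poly-A covariate. Member probe sets passed there (2) numbered 1 with no dim filter, no trend or the poly-A covariate. Against the midparent, members and member probe sets passed (0 each) numbered 1 with the replicate block and with array weights, in both cases. All genes passed there (83) numbered 44 with the mean of all probe sets, 52 with no trend, 46 with the poly-A covariate and 254 with array weights. Member probe sets passed in C3H against C57Bl/6 (4) numbered 2 with no trend.

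With each array left out in turn, members passed ranged from 2 to 4 in C3H against C57Bl/6, 1 to 2 in B6C3F1 against C57Bl/6, 1 to 4 in B6C3F1 against C3H and 0 to 2 against the midparent, and the ranges for member probe sets were the same. All genes passed ranged from 1640 to 2272, 264 to 826, 555 to 1117 and 41 to 210 in the same 4 contrasts. Centring moved the median of all genes in C3H minus C57Bl/6 to 0.08, against -0.02. Under it, 213 genes were higher and 102 lower in B6C3F1 against C57Bl/6 (otherwise 270 and 232), and 266 higher and 408 lower in B6C3F1 against C3H (otherwise 470 and 343). With the mean of all probe sets, Cd47 turned to -0.024 and Smad4 to -0.22 in C3H minus C57Bl/6, and Fbln2 to 0.062 and Smad4 to 0.021 in B6C3F1 minus C3H.

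Same-numbered mice deviated from their strain means with correlations of -0.06 to 0.13, over 0.1 in 2 of 15 pairs. These 2 were C3H with C57Bl/6, for replicate 1 (0.128) and replicate 5 (0.125). The labels name no pairs, and a correlation over all genes tested cannot exclude a factor shared by few genes. With the replicate block, calls were gained for Sparcl1 between C3H and C57Bl/6 (adjusted p = 0.0327), Cilp between B6C3F1 and C3H (0.0216) and Sparc against the midparent (0.013). The other calls gained with all arrays kept were Sparcl1 between C3H and C57Bl/6 with the poly-A covariate (0.0286), where Cilp was lost, Cilp between B6C3F1 and C3H with the Gapdh covariate (0.0438), Thbs1 between C3H and C57Bl/6 with no trend (0.0442) and Sparc against the midparent with array weights (0.0363).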

Other observations

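The second Thbs1 probe set, 1460302_at, lay below the dim filter and was not tested. Its values fell apart within each strain: 5.92, 4.40, 6.29, 4.28 and 6.54 in B6C3F1 mice, 5.69, 4.43, 5.42, 4.59 and 5.44 in C3H mice, and 6.32, 4.52, 6.32, 6.12 and 4.27 in C57Bl/6 mice. Each strain had 2 mice at or under 4.59 and 3 at or above 5.42. The remaining Sparc probe set, 1458204_at, averaged 5.58 in B6C3F1, 5.49 in C3H and 5.13 in C57Bl/6 and also lay below the filter.

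Endothelial genes were among the cell type markers that differed. Of 8 tested, 3 were lower in C3H than in C57Bl/6: Cldn5 (-0.66), Cdh5 (-0.56) and Esam (-0.45). In B6C3F1 against C3H, Cdh5 (0.70) and Cldn5 (0.58) were higher. Of all genes tested, 8.4% were lower in C3H than in C57Bl/6 and 3.58% were higher in B6C3F1 than in C3H. The summed signal of the endothelial list ranged from 10098 to 15647 in B6C3F1, 8210 to 12870 in C3H and 12464 to 15103 in C57Bl/6.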
